A study of Rattus norvegicus with 20 samples.

Results

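The miR-29 family consists here of the guide strands rno-miR-29a-3p, rno-miR-29b-3p and rno-miR-29c-3p, selected by the name of the array feature, and these are 3 of the 719 rat miRNAs on the microarray. Whole kidneys came from male Wistar rats of 80 to 100 g, 5 kidneys in each of 4 groups, with 1 array per kidney and 20 arrays in all. One group received the PEG400 and water vehicle and was collected on day 6. The other groups received aristolochic acid I (AAI), a plant nephrotoxin, by intraperitoneal injection at 40 mg per kg body weight, with collection after 2, 4 or 6 days. No vehicle arrays of day 2 or day 4 were analysed here, so each AAI group was set against the same 5 vehicle arrays, and the 3 comparisons with vehicle share them. The question addressed is how each member's level stood after AAI at the 3 times, and whether the members moved alike.

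A miRNA is a short RNA that guides an Argonaute protein to messenger RNAs, mainly through pairing of its seed, the bases 2 to 8 from its 5′ end. The miR-29 family is known for repressing messages of the extracellular matrix, among them those of fibrillar collagens, fibrillin and elastin, and TGF-beta signalling is known to lower it in models of kidney fibrosis. In the rat the family is made from 4 hairpins in a pair of clusters, and miR-29b-3p is encoded in both.

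The mature sequences from RefSeq (build GRCr8) are shown with the seed in capitals, because the members carry an identical seed and differ only outside it.
miR-29a-3p: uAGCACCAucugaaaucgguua
miR-29b-3p: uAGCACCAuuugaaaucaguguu
miR-29c-3p: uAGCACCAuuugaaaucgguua
The seed AGCACCA occurred in 3 of the 693 mature rat miRNA names of that table, which are the family itself. Counted from the 5′ end, miR-29a-3p and miR-29c-3p differ by the single substitution C10U, with the miR-29a-3p base given first. From miR-29a-3p to miR-29b-3p the substitutions are C10U, G18A, U21G and A22U, so that 18 of 22 positions are the same, and miR-29b-3p is 1 base longer. From miR-29c-3p to miR-29b-3p they are G18A, U21G and A22U, and 19 of 22 positions are the same.

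In GRCr8 miR-29a-3p lies at chr4:60617968-60617989 on the minus strand, in the hairpin of Mir29a. A copy of miR-29b-3p lies beside it at chr4:60618342-60618364, in Mir29b1, with 291 bases between these hairpins. The other copy of miR-29b-3p is at chr13:109098882-109098904 on the plus strand, in Mir29b2, and miR-29c-3p follows at chr13:109099412-109099433 in Mir29c, with 447 bases between those hairpins. The hairpins that give miR-29b-3p are shown with the guide in capitals, because an array signal for miR-29b-3p cannot be assigned to one of them.
Mir29b1 hairpin, chromosome 4: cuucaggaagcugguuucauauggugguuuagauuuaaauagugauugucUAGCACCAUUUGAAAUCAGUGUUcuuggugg
Mir29b2 hairpin, chromosome 13: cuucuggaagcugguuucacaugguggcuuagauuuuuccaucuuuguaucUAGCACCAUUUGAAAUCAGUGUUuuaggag
The guide is letter for letter the same in both hairpins, and the surrounding letters differ.

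Each member was read by 2 array probes on 10 spots each. The longer probe of each member, a DNA strand complementary to the guide, is shown with capitals at the bases that face guide positions 10, 18, 21 and 22, where the members differ.
miR-29a-3p probe: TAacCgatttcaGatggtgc
miR-29b-3p probe: aACacTgatttcaAatggtgct
miR-29c-3p probe: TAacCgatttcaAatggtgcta
The miR-29a-3p probe has 1 mismatch to the miR-29c-3p guide and the miR-29c-3p probe has 1 mismatch to the miR-29a-3p guide. How much of one guide's signal came from the other was not tested.

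All 3 guides were detected on 20 of 20 arrays. Their summed probe signals, background-subtracted fluorescence in the scanner's own units, ranged from 1999 to 5975 for miR-29a-3p, from 1398 to 4370 for miR-29b-3p and from 1817 to 3321 for miR-29c-3p. Among the opposite strands of the same hairpins, miR-29c-5p was detected on 20 of 20 arrays at signals of 51.1 to 96.6, miR-29a-5p on 3 of 20 arrays, and miR-29b-1-5p and miR-29b-2-5p on 0 of 20. The probes differ between miRNAs, so these signals are not compared as amounts.

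The arrays held between 250 and 328 detected miRNAs, and none of their spots was saturated. The kidney label was set against marker miRNAs: the tubular miR-192-5p, miR-194-5p, miR-204-5p, miR-200b-3p and miR-10a-5p were each detected on 20 of 20 arrays, while miR-215 was detected on 0. Of 5 markers of other organs, the liver marker miR-122-5p was detected on 4 arrays, the muscle markers miR-1-3p on 0 and miR-206-3p on 5, and the brain markers miR-124-3p on 3 and miR-9a-5p on 20 of 20. Arrays lay on 3 slides, and slide and group overlapped strongly: vehicle arrays 1 to 4 were on slide 3, while slide 2 carried the whole AAI day 2 group together with vehicle array 5 and the first 2 of the AAI day 4 arrays. The remaining 3 AAI day 4 arrays shared slide 1 with the AAI day 6 group, which was therefore never on a slide with vehicle. Levels below are log2 values relative to the 75th percentile of signal on the same array, taken over the 231 miRNAs detected on every array. limma was run on the 262 miRNAs that at least 1 group showed on each of its arrays, and a miRNA was called at a Benjamini-Hochberg adjusted p under 0.05.

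At day 6 miR-29b-3p was higher in AAI kidneys than in vehicle kidneys, miR-29a-3p differed by 0.34 without passing the threshold, and miR-29c-3p differed by -0.04. One of the 3 members was thus called, higher, where 26% of all tested miRNAs were called in either direction and 7.25% were called higher. Over all tested miRNAs the median change was -0.11. In whole-kidney RNA, fewer cells of a type and less RNA per cell cannot be told apart.

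For miR-29b-3p the AAI day 6 arrays read 2.65, 2.83, 2.50, 2.73 and 3.13, and the vehicle arrays 2.24, 1.98, 2.65, 2.30 and 2.46. The groups overlapped, where 23.3% of all tested miRNAs had groups that did not, because vehicle array 3 was level with AAI day 6 array 1 and stood above AAI day 6 array 3. The means were 2.77 ± 0.24 in AAI day 6 and 2.32 ± 0.25 in vehicle (SD, n = 5 each), a log2 change of 0.44 ± 0.13 (SE), which is 1.36-fold with a 95% interval of 1.13 to 1.64 (limma, adjusted p = 0.0129). With the slide as a fixed block the change was 0.14 ± 0.29 (limma, adjusted p = 0.707), and with the slide as a random block 0.34 ± 0.19 (limma, adjusted p = 0.179). The fixed-block value reaches vehicle only through vehicle array 5, as the other vehicle arrays were alone on their slide. The call rests on arrays that share no slide, and slide and treatment cannot be told apart in this pair of groups.

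miR-29a-3p, which shares the chromosome 4 cluster with one copy of miR-29b, read 3.29, 3.38, 3.11, 3.19 and 3.58 on the AAI day 6 arrays and 2.95, 2.50, 3.38, 2.99 and 3.01 on the vehicle arrays. Vehicle array 3 was again high, level with the second highest AAI day 6 array, and vehicle array 2 was the lowest of all 20. The difference was 0.34 ± 0.13 (SE), or 1.27-fold with a 95% interval of 1.05 to 1.54, and it was not called (limma, adjusted p = 0.0628). Without vehicle array 3 it was 0.45 and called (limma, adjusted p = 0.0134).

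miR-29c-3p, of the chromosome 13 cluster, read 2.30, 2.59, 2.29, 2.56 and 2.74 on the AAI day 6 arrays and 2.54, 2.37, 2.70, 2.51 and 2.59 on the vehicle arrays. The AAI day 6 arrays spanned the whole vehicle range on both sides. The difference was -0.04 ± 0.10 (SE; limma, adjusted p = 0.775), and its 95% interval, 0.834- to 1.13-fold, leaves room for a small change either way. Its sign turned positive under 4 other ways of processing, among them no scaling at 0.33, and without AAI day 6 array 1 or 3, so no direction is given for this member. Its opposite strand miR-29c-5p averaged -2.66 ± 0.18 in AAI day 6 and -2.43 ± 0.10 in vehicle (SD, n = 5 each), a difference of -0.23 ± 0.10 (SE) that was not called (limma, adjusted p = 0.0901).

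**Figure D1:**
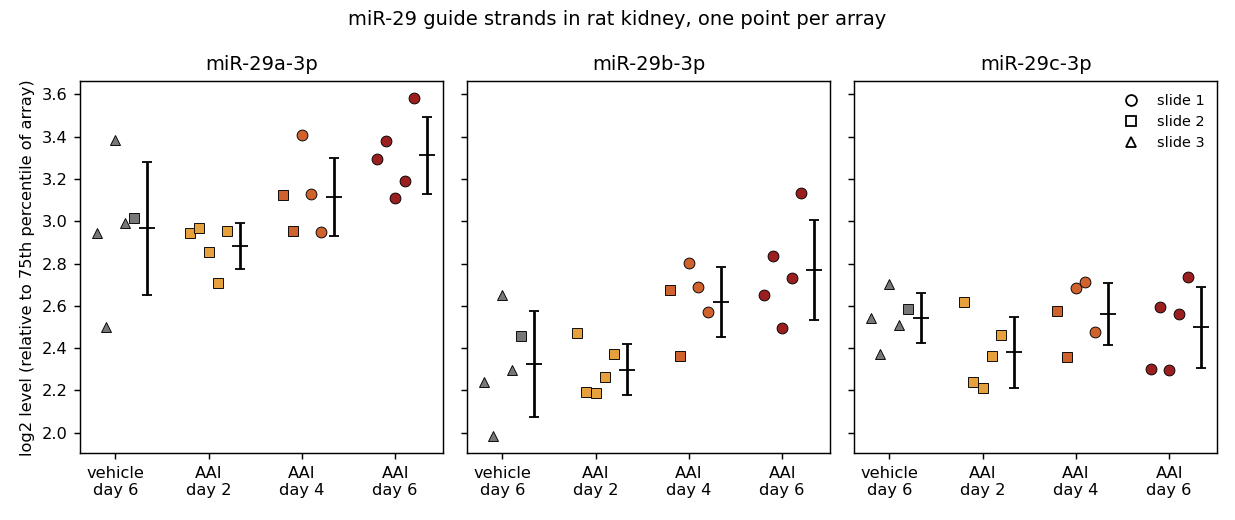
Log2 level of each miR-29 guide strand on every array, relative to the 75th percentile of the array, by group (5 arrays each), with the slide as the marker shape and the mean and SD beside each group. miR-29b-3p averaged 2.77 in AAI day 6 kidneys and 2.32 in vehicle kidneys with overlapping arrays, while miR-29c-3p averaged 2.50 and 2.54.

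On the earlier days no member was called against vehicle, beside 1.53% of all tested miRNAs at day 2 and 3.44% at day 4. On AAI day 2 the arrays ranged from 2.71 to 2.97 for miR-29a-3p, from 2.19 to 2.47 for miR-29b-3p and from 2.21 to 2.62 for miR-29c-3p. All of these arrays lay inside the vehicle range for miR-29a-3p and miR-29b-3p, and 3 of the miR-29c-3p arrays lay below the lowest vehicle array. The differences from vehicle were -0.08 ± 0.13, -0.03 ± 0.13 and -0.16 ± 0.10 (SE) in the order a, b, c (limma, adjusted p = 0.883, 0.943 and 0.636), and all 3 signs turned positive without scaling.

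On AAI day 4 miR-29b-3p read 2.67, 2.36, 2.80, 2.69 and 2.57. It averaged 2.62 ± 0.17 in AAI day 4 and 2.32 ± 0.25 in vehicle (SD, n = 5 each), a difference of 0.29 ± 0.13 (SE) that was not called (limma, adjusted p = 0.168). miR-29a-3p differed by 0.15 ± 0.13 (limma, adjusted p = 0.520) and miR-29c-3p by 0.02 ± 0.10 (limma, adjusted p = 0.951). Between neighbouring days no member was called: the day 4 minus day 2 differences were 0.23, 0.32 and 0.18 for a, b and c, and the day 6 minus day 4 differences 0.20, 0.15 and -0.06 (limma, adjusted p from 0.609 to 0.992), beside 0% and 0.763% of all tested miRNAs called.

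Between AAI day 6 and AAI day 2, miR-29a-3p and miR-29b-3p were both higher on day 6, and in neither did the groups overlap, where 11.1% of all tested miRNAs were called, 3.44% were called higher, and 9.92% had groups that did not overlap. miR-29a-3p ranged from 3.11 to 3.58 in AAI day 6 and from 2.71 to 2.97 in AAI day 2, a difference of 0.43 ± 0.13 (SE), or 1.34-fold (limma, adjusted p = 0.0430). miR-29b-3p ranged from 2.50 to 3.13 in AAI day 6 and from 2.19 to 2.47 in AAI day 2, a difference of 0.47 ± 0.13 (SE), or 1.39-fold (limma, adjusted p = 0.0249). miR-29c-3p, with a difference of 0.12 ± 0.10 (SE), was not called (limma, adjusted p = 0.506). These 2 groups lay on different slides, and with the slide as a fixed block the differences were 0.31 ± 0.24 for miR-29a-3p and 0.30 ± 0.22 for miR-29b-3p (limma, adjusted p = 0.317 and 0.293). Each call held in 2 of the 6 ways of scaling described next, and that of miR-29a-3p was lost on leaving out any of 13 of the 20 arrays, that of miR-29b-3p without AAI day 2 array 2 or AAI day 6 array 5.

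How far the arrays are scaled against each other moves every member together. Over 6 ways of scaling, the day 6 minus vehicle change of miR-29b-3p was positive in all 6, from 0.34 to 0.81, and called in 4. That of miR-29a-3p was positive in all 6, from 0.24 to 0.71, and called in 2. That of miR-29c-3p was positive in 3 of 6, from -0.15 to 0.33, and called in none of them. The median change of all tested miRNAs went along, at 0.26 with no scaling, 0.15 with labelling spike-ins and -0.22 with the 75th percentile over all miRNAs. The split of all calls moved too, with 33 higher and 1 lower without scaling beside 19 higher and 49 lower under the scaling used here.

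**Figure D2:**
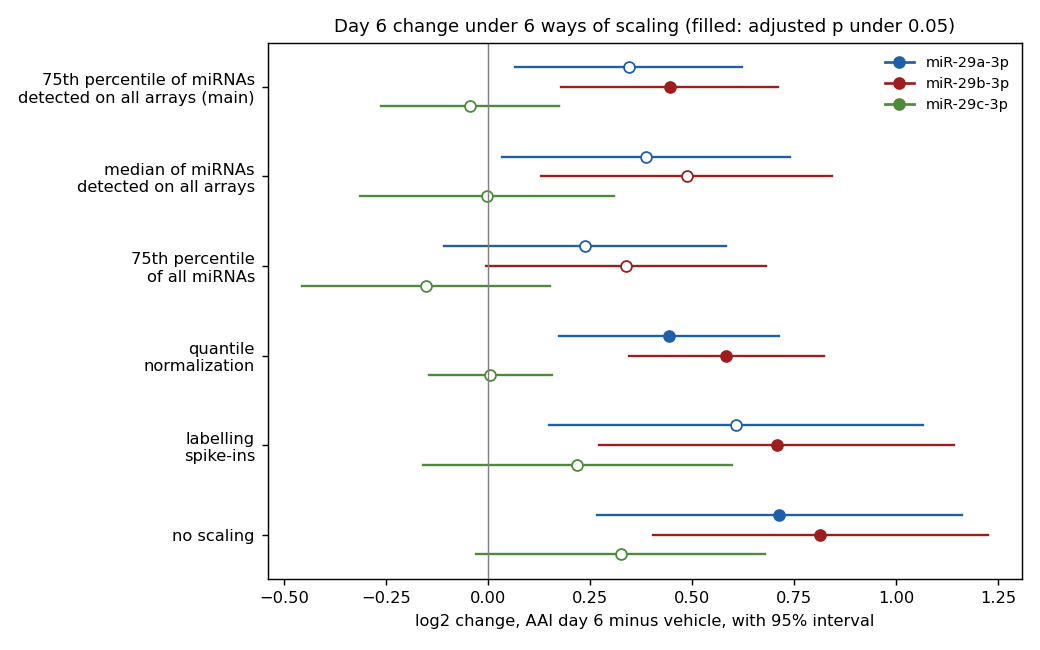
Log2 change, AAI day 6 minus vehicle, for the 3 miR-29 guides under 6 ways of scaling the arrays, with 95% intervals; filled points have an adjusted p under 0.05 in limma. The members shift together with the scaling, and miR-29c-3p lies below miR-29a-3p and miR-29b-3p in each of them.

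A ratio of a pair of members on the same array is the same under any scaling that divides all signals of an array by 1 number. Quantile normalization is not such a scaling and moved the ratios. The ratio of miR-29b-3p to miR-29c-3p was higher on the AAI day 4 and AAI day 6 arrays than on the vehicle arrays. A ratio shows an unequal difference between 2 members, not which of them differed.

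The log2 ratio of miR-29b-3p to miR-29c-3p was -0.30, -0.39, -0.05, -0.21 and -0.13 on the vehicle arrays and -0.15, -0.05, -0.02, -0.10 and -0.09 on the AAI day 2 arrays. On the AAI day 4 arrays it was 0.10, 0.00, 0.12, -0.02 and 0.10, and on the AAI day 6 arrays 0.35, 0.24, 0.20, 0.17 and 0.40. Every AAI day 4 and AAI day 6 array stood above every vehicle array, and every AAI day 6 array stood above every array of the other groups. At day 6 against vehicle 23.3% of all tested single miRNAs had groups that did not overlap. Ratios of miRNA pairs outside the family were not examined, so no share over all pairs is given. The group means were -0.22 ± 0.13 in vehicle, -0.08 ± 0.05 on day 2, 0.06 ± 0.06 on day 4 and 0.27 ± 0.10 on day 6 (SD, n = 5 each).

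Against vehicle this ratio differed by 0.14 at day 2 (two-sided exact permutation test, adjusted p = 0.129), by 0.27 at day 4 and by 0.49 at day 6, which is 1.40-fold (adjusted p = 0.0357 for both). Under quantile normalization, added after seeing the data, the day 4 and day 6 values were 0.39 and 0.58 (two-sided exact permutation test, adjusted p = 0.0238 for both). The p-values were adjusted over 9 ratio comparisons, and the unadjusted p of 0.00794 at day 4 and day 6 is the smallest that 5 against 5 arrays can give. With the slide as a fixed block the least-squares values were 0.05, 0.18 and 0.39, with no test. As for the levels, slide and treatment cannot be told apart between AAI day 6 and vehicle, and at day 4 a single vehicle array links them on 1 slide. Within slide 2 the ratio averaged 0.05 on 2 AAI day 4 arrays against -0.13 on the 1 vehicle array. Within slide 1 it ranged from 0.17 to 0.40 on 5 AAI day 6 arrays and from -0.02 to 0.12 on 3 AAI day 4 arrays, a difference of 0.21 with no overlap (two-sided exact permutation test, p = 0.0357, adjusted over 3 ratios 0.0804), a comparison chosen after seeing the data.

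The ratio of miR-29c-3p to miR-29a-3p, guides that differ by 1 base, averaged -0.81 ± 0.13 in AAI day 6 and -0.43 ± 0.20 in vehicle (SD, n = 5 each). The difference of -0.39 passed the threshold (two-sided exact permutation test, adjusted p = 0.0476), although vehicle array 3, at -0.68, lay below AAI day 6 array 4, at -0.63. The call was lost on leaving out any of 8 of the 10 arrays, each with an adjusted p of 0.0714, and under quantile normalization (-0.44, adjusted p = 0.0536). At day 4 it differed by -0.13 and at day 2 by -0.08 (two-sided exact permutation test, adjusted p = 0.347 and 0.540).

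The ratio of miR-29b-3p to miR-29a-3p differed from vehicle by 0.06 at day 2, 0.15 at day 4 and 0.10 at day 6 (two-sided exact permutation test, adjusted p = 0.509, 0.107 and 0.202). It was not called on any day, but at day 4 it was called under quantile normalization (0.20) and in the deposited table (0.24), each with an adjusted p of 0.0238 by the same test. In the day 6 comparison it averaged -0.54 ± 0.09 in AAI day 6 and -0.64 ± 0.10 in vehicle (SD, n = 5 each).

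**Figure D3:**
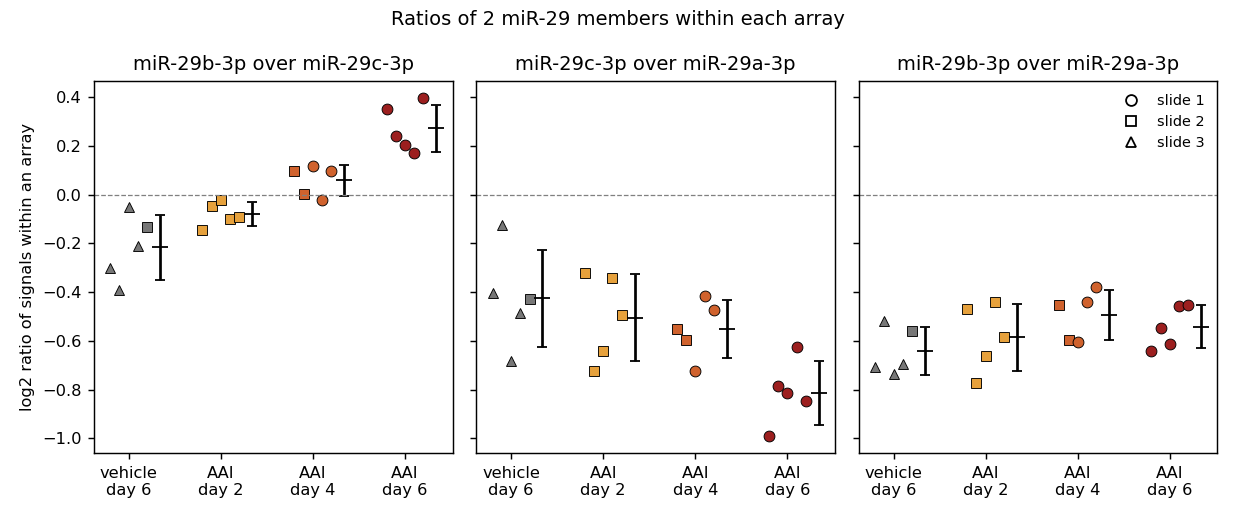
Log2 ratio of the signals of 2 miR-29 guides on each array, by group (5 arrays each), with the slide as the marker shape and the mean and SD beside each group. The ratio of miR-29b-3p to miR-29c-3p averaged 0.27 on AAI day 6 and -0.22 in vehicle with no overlap, while that of miR-29b-3p to miR-29a-3p averaged -0.54 and -0.64.

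Both probes of each member gave much the same change. At day 6 against vehicle the miR-29b-3p probes gave 0.47 and 0.43 (limma, adjusted p = 0.0104 and 0.0158), the miR-29c-3p probes -0.04 and -0.05, and the miR-29a-3p probes 0.39 and 0.32 (limma, adjusted p = 0.0306 and 0.0852). The longer miR-29b-3p probe faces the same guide letters from both hairpins, so neither probe separates the clusters.

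Across the 20 arrays miR-29a-3p and miR-29b-3p varied together with Pearson's r = 0.91 and Spearman's rho = 0.86. The values were 0.58 and 0.56 for miR-29a-3p and miR-29c-3p, and 0.68 and 0.68 for miR-29b-3p and miR-29c-3p. Without the 2 arrays farthest from the median the r were 0.84, 0.49 and 0.62 in that order. Within slide 1 (8 arrays) they were 0.88, 0.47 and 0.73, and within slide 2 (8 arrays) 0.72, 0.51 and 0.87. After subtracting each group's mean they were 0.87, 0.66 and 0.89. The points share labelling, scaling and slide, and the guides are near-identical in sequence, so these are descriptions of the arrays.

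Outside the family, 258 tested miRNAs were ranked by their r with each member over the 20 arrays. miR-29c-3p was most like miR-101b-3p (r = 0.89), miR-101a-3p (0.84) and miR-26b-5p (0.71), where the median miRNA had 0.17. At day 6 against vehicle miR-101b-3p and miR-101a-3p changed by -0.04 ± 0.10 and -0.02 ± 0.13 (SE; limma, adjusted p = 0.772 and 0.941). miR-26b-5p changed by -0.19 ± 0.09 (SE; limma, adjusted p = 0.105). These miRNAs were picked by r over the same arrays, so likeness of their changes to that of miR-29c-3p is partly built in. miR-29b-3p was most like miR-21-5p (0.63), miR-20a-5p (0.62) and miR-101a-3p (0.61), and miR-29a-3p most like miR-31a-5p (0.61), miR-200c-3p (0.59) and miR-20a-5p (0.59), where the median miRNA had -0.02 and -0.03. After subtraction of group means the r of miR-29b-3p was 0.24 with miR-21-5p, 0.58 with miR-20a-5p and 0.69 with miR-101a-3p. In the order named above, those of miR-29a-3p were 0.66, 0.72 and 0.53, and those of miR-29c-3p 0.87, 0.81 and 0.86.

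The family was set beside miRNAs tied to kidney fibrosis. Of 15 miRNAs described as restraining matrix or TGF-beta genes, 14 were tested, 0 were called higher and 1 lower at day 6 against vehicle, where 18.7% of all tested miRNAs were called lower. The one lower was let-7b-5p, a let-7 member described as targeting a TGF-beta receptor, at -0.30 ± 0.09 (limma, adjusted p = 0.0206), and its change ran from -0.41 to 0.07 over 5 other scalings. The median of the 14 was -0.15 beside -0.11 for all tested miRNAs. The members of the miR-30 family had values from -0.21 for miR-30e-5p to -0.03 for miR-30d-5p, and those of the miR-200 family from -0.23 for miR-200b-3p to 0.15 for miR-141-3p. None of these was called.

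Of 10 miRNAs described as promoting fibrosis or as higher with it, 6 were tested, 1 was called higher and 2 lower, where 7.25% of all tested miRNAs were called higher and 18.7% lower, and their median was -0.01 beside -0.11. miR-21-5p, an injury-responsive miRNA, was higher at 1.11 ± 0.24, or 2.16-fold (limma, adjusted p = 0.00285), and was called in all 5 other scalings at 1.01 to 1.48. miR-192-5p, which is also a marker of tubular epithelium, was lower at -0.56 ± 0.13 (limma, adjusted p = 0.00445) and ran from -0.66 to -0.19 in those 5 scalings, in which it was called in 2. miR-214-3p, which is found in stromal cells, was lower at -0.25 ± 0.08 (limma, adjusted p = 0.0298), with values from -0.36 to 0.12 in those scalings and a call in 1. On day 2 and day 4 no miRNA of either list was called against vehicle, where 1.53% and 3.44% of all tested miRNAs were called.

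**Figure D4:**
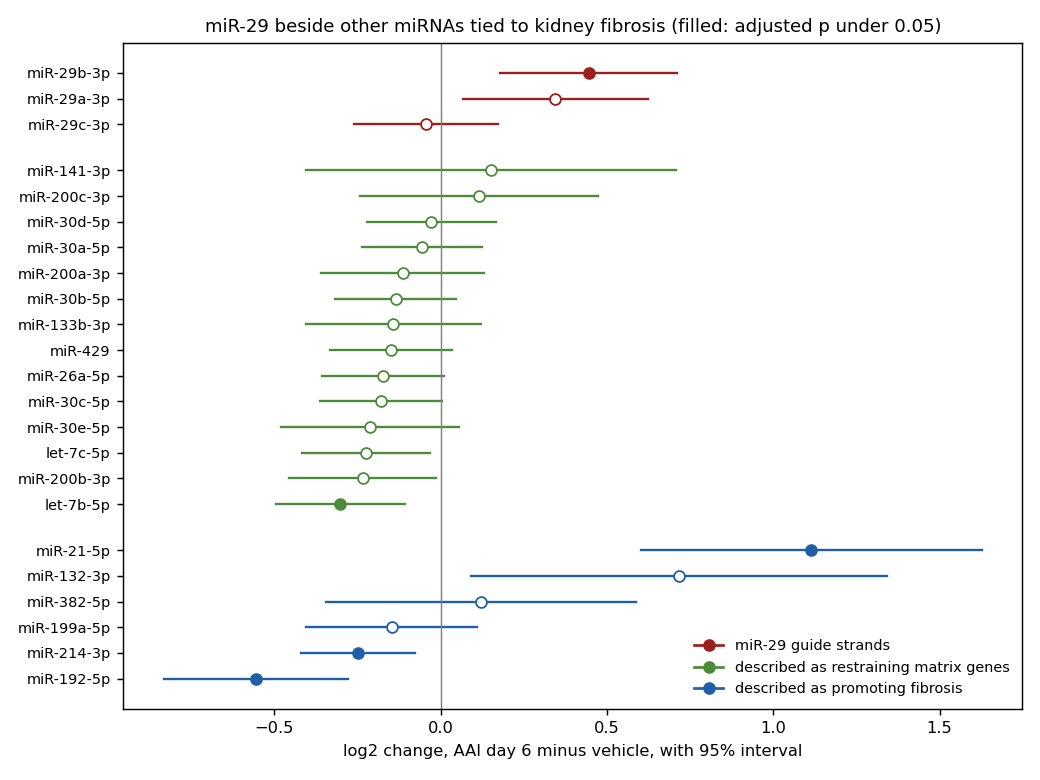
Log2 change, AAI day 6 minus vehicle, with 95% intervals for the miR-29 guides, 14 miRNAs described as restraining matrix genes and 6 described as promoting fibrosis; filled points have an adjusted p under 0.05 in limma. miR-21-5p stands at 1.11 and miR-29b-3p at 0.44, while miR-29c-3p at -0.04 lies among the matrix-restraining miRNAs.

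Some markers of cell types were also called at day 6, where 18.7% of all tested miRNAs were called lower. Of the tubular markers 3 of the 5 tested were lower, miR-192-5p as above, miR-194-5p at -0.63 and miR-204-5p at -0.42. That count was 0 with no scaling and with spike-ins, 1 with the median, and 3 with quantile normalization and with the 75th percentile over all miRNAs. The summed level of the 6 markers on the array ranged from 4.28 to 4.60 in AAI day 6 and from 4.65 to 4.76 in vehicle. The erythrocyte marker miR-451-5p was lower at -2.73 ± 0.34 (limma, adjusted p = 1.6e-05) and was called in all 5 other scalings, and the summed level of miR-451-5p and miR-144-3p ranged from -4.17 to -2.31 in AAI day 6 and from -1.30 to 0.42 in vehicle. Of the leukocyte markers 1 of 5 tested was lower, miR-342-3p at -0.65, a share near that of all tested miRNAs. That count was 0 to 2 over the 5 other scalings. The median change of these 5 was -0.60, with single values from -0.69 to 0.01, beside -0.11 for all tested miRNAs. Over the 5 other scalings this median ran from -0.71 to -0.23. The summed levels of the leukocyte markers were 0.85 to 1.32 in AAI day 6 and 1.33 to 1.38 in vehicle. Of the stromal markers 1 of 5 was lower, miR-214-3p, again near the share of all, and 0 in 4 of the 5 other scalings, with summed levels of 2.86 to 3.18 in AAI day 6 and 3.06 to 3.27 in vehicle. Neither of the 2 endothelial markers was called, with summed levels of 2.80 to 3.13 in AAI day 6 and 3.16 to 3.19 in vehicle. Their median change was -0.17, and over the 5 other scalings it ran from -0.28 to 0.20. Of the markers of other organs, only miR-9a-5p was tested and it was not called, at 0.36 ± 0.24 (SE; limma, adjusted p = 0.278), and the summed level of the list ranged from -2.97 to -1.68 in AAI day 6 and from -3.62 to -2.14 in vehicle. The summed levels were taken under the scaling used here alone, where 23.3% of all tested miRNAs had groups that did not overlap. Whether their separation holds under other scalings was not tested. The part of these cell types in the levels of the miR-29 members was not tested.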

How the data were processed

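Values were read from 20 one-colour Agilent miRNA microarrays whose images were quantified with Feature Extraction 10.7.1.1, per the file headers. The deposited spot values used are background-subtracted fluorescence intensity and the software's detection, saturation and outlier flags, which are 0 or 1 indicators of another kind; the deposited series table in log2, whose scale and centring are not stated in the sources used here, served as an alternative. For each of 719 miRNAs the spots of a probe without outlier flags were averaged, the probes summed, and the sum divided by the array's 75th percentile over 231 miRNAs detected on all arrays. Values under 0.0064 of that percentile were set to it, and log2 was taken. Of 5240 tested values 12 lay at this floor. The 75th percentile of signal ranged from 309 to 592 per array, and the number of arrays limits the precision. On the vehicle arrays this percentile was 312 to 452. It was 309 on AAI day 6 array 2 and 499 to 535 on the other AAI day 6 arrays, so the scaling itself differed between these groups.

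limma 3.58.1 in R 4.3.3 fitted all 4 groups to 262 miRNAs, with Benjamini-Hochberg adjustment per comparison. The fit was tested on simulated data. Member ratios used two-sided exact permutation tests. Member probes were matched to sequences by name. Members, lists and tests were chosen with earlier results of these data known; named miRNAs are the members, their opposite strands, the 3 miRNAs most correlated with each member, and the fibrosis and cell type lists. Replicates are separate kidneys according to the labels, which do not say that each came from its own rat, so p-values measure the spread between these kidneys. Alternatives covered scaling, background, probe summary, filter, slide, replicate number, variance model and each array.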

Additional observations from a re-analysis of the deposited data

Results flagged for a closer look

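The level of miR-29a-3p differed between AAI day 6 and AAI day 2 by 0.43, and that of miR-29b-3p by 0.47, among 12 tests of differences between days for the 3 guides and miR-29c-5p (limma, adjusted p = 0.0430 and 0.0249). All 5 arrays of AAI day 6 stood above all 5 arrays of AAI day 2 for both miRNAs. Between these days 9.92% of all tested miRNAs had groups that did not overlap, 11.1% were called and 3.44% were called higher. The 2 groups lay on different slides, and each call held in 2 of the 6 ways of scaling. Both groups were set against the same vehicle arrays, so the difference between the days equals the difference of their changes from vehicle. No array stood far from the others of its group in any of the 28 groups of levels and ratios examined with Dixon's test.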

How the results depend on the processing

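Every setting kept the positive sign of miR-29b-3p at day 6 against vehicle, but its call was lost with scaling to the median (0.49), the 75th percentile over all miRNAs (0.34), the slide as fixed block (0.14) or random block (0.34), and the fixed block without the second AAI day 4 array (0.30), with limma adjusted p from 0.0803 to 0.707. It was kept on leaving out each array, at 0.35 to 0.53. The miR-29a-3p difference at day 6 against vehicle became a call with no scaling (0.71), quantile normalization (0.44), the software's total signal (0.56), the deposited table (0.44) and probe 1 alone (0.39), and ranged from 0.23 to 0.45 on leaving out each array, with a call only without vehicle array 3. Of the 3 members, 2 were called in those settings apart from the single probe, and 0 in the 5 that lost miR-29b-3p; leaving out arrays gave 1 to 2. At day 4 the quantile setting called 1 member, miR-29b-3p at 0.43.

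For day 6 against day 2, the miR-29a-3p call was lost with no scaling (0.50), the median (0.45), the 75th percentile over all miRNAs (0.33), spike-ins (0.43), normexp (0.36), the total signal (0.56), every miRNA detected at least once (0.43), and the slide as fixed block (0.31), random block (0.37) or fixed block without the second AAI day 4 array (0.39). The miR-29b-3p call was lost with no scaling (0.55), the median (0.49), the 75th percentile over all miRNAs (0.37), spike-ins (0.47), normexp (0.40), the total signal (0.60) and the same slide settings (0.30, 0.40 and 0.46). In these settings 0 members were called, and 1 with every miRNA detected at least once. Leaving out arrays gave 0.36 to 0.48 for miR-29a-3p and 0.38 to 0.54 for miR-29b-3p, with 0 to 2 called. The first was lost without any of 13 arrays (vehicle 1, 4 and 5, each AAI day 2 array, AAI day 4 array 1, and AAI day 6 arrays 1, 2, 3 and 5), the second without AAI day 2 array 2 (0.44) or AAI day 6 array 5 (0.38).

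Uncalled differences changed sign as follows. At day 2 against vehicle, miR-29a-3p was 0.21 with no scaling, 0.18 with spike-ins and 0.00251 with the total signal, and -0.20 to 0.022 on leaving out arrays. miR-29b-3p was 0.27 with no scaling, 0.075 with quantile, 0.24 with spike-ins, 0.020 with normexp, 0.059 with the total signal and 0.10 in the deposited table, and -0.11 to 0.055 on leaving out arrays. miR-29c-3p was 0.13 with no scaling and 0.10 with spike-ins. At day 4 it was -0.0048 with the median, -0.12 with the slide as fixed block and within 1 slide, -0.023 with the random block, -0.012 with the fixed block without the second AAI day 4 array, and -0.023 to 0.070 on leaving out arrays. At day 6 it was 0.33 with no scaling, 0.0056 with quantile, 0.22 with spike-ins, 0.17 with the total signal, and -0.10 to 0.0065 on leaving out arrays. For day 6 against day 2 it was -0.040 with the slide as fixed block, and for day 6 against day 4 it was 0.0022 with the median, 0.013 with spike-ins and 0.061 with the total signal.

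The ratio of miR-29b-3p to miR-29c-3p at day 6 was positive in every setting, 0.39 to 0.61, and at day 4, 0.18 to 0.42; at day 2 it ranged from 0.092 to 0.18 on leaving out arrays and was called without vehicle array 3. The ratio of miR-29c-3p to miR-29a-3p at day 6 was -0.44 in the deposited table and under quantile normalization (exact permutation test, adjusted p = 0.0536 for both) and -0.45 to -0.31 on leaving out arrays, and it was no call once any array but vehicle array 3 and AAI day 6 array 4 was left out of those 10. The ratio of miR-29b-3p to miR-29a-3p was -0.028 at day 2, 0.034 at day 4 and -0.034 at day 6 with the slide as a fixed block, the same within slide 2 at day 2 and day 4, and at day 4 it was called in the deposited table (0.24) and under quantile normalization (0.20, exact permutation test, adjusted p = 0.0238 for both). Quantile normalization of the ratios and the values within a slide were added after seeing the data. The cause of these shifts was not tested.

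With the replicate number as a block, miR-29a-3p for day 6 against day 2 stayed at 0.43 and was not called (limma, adjusted p = 0.0617), which left 1 member called, and miR-29b-3p at day 6 against vehicle remained called (limma, adjusted p = 0.0182). The paired sign-flip test of the ratios gave -0.39 for miR-29c-3p to miR-29a-3p at day 6, and 0.27 at day 4 and 0.49 at day 6 for miR-29b-3p to miR-29c-3p, each with an adjusted p of 0.141; 5 pairs cannot give a p below 0.0625. The numbers did not pair the arrays: 11 of 30 same-number pairs of deviations correlated above 0.1, from -0.62 to 0.66, and 4 of 20 arrays correlated best with their own number.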
